A study of Mus musculus with 10 samples.

Results

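Paneth cells are secretory cells at the base of the small intestinal crypts. Their granules release alpha-defensins, which are antimicrobial peptides, together with lysozyme, lectins and other proteins that act on microbes in the gut lumen. In the mouse, alpha-defensins are made as precursors and are cut to their active form by the metalloproteinase MMP7. The levels of 10 Paneth cell genes were followed here: Lyz1, Ang4, Mmp7, Itln1, Mptx2, Defa17, Defa21, Defa22, Defa24 and Defa30. They were taken by gene symbol, and all 10 were found among the 43432 gene identifiers of the count tables, of which 42462 carried a symbol in GENCODE M21 (mouse build GRCm38).

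The counts came from poly(A) RNA-seq of sorted cells of naive male mice of 12 weeks, with 1 mouse behind each of the 10 libraries. All mice carried 2 copies of Flare25, an Il25 allele with a fluorescent reporter (C57BL6.Il25(Flare25/Flare25)), and no mouse without the reporter was analysed here. Thymic tuft cells (n = 4, 1350 to 1900 cells a library) and small intestinal (SI) tuft cells (n = 3, 35000 to 36000 cells) were DAPI-, CD45-, EPCAM+ and reporter-positive. SI epithelium (n = 3, 52000 to 57000 cells) came through the same gate but was reporter-negative. Tuft cells are rare chemosensory cells, and the reporter marks cells by Il25 alone. The gut was dissociated with DTT and EDTA, the thymus with enzymes and a Percoll step, so that organ, dissociation and cell number cannot be told apart. These are bulk libraries, in which fewer cells of a type and less RNA per cell cannot be told apart.

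Libraries held 38659882 to 51153413 counts in thymic tuft cells, 46846738 to 62268881 in SI tuft cells and 52354113 to 73574745 in SI epithelium. Levels are given as CPM, counts per 1000000 counts of library size after TMM scaling, and 3 counts in a library correspond to 0.0433 to 0.0817 CPM. The 10 tuft cell markers summed to 4404 to 5462 CPM in thymic tuft cells and 12920 to 16282 CPM in SI tuft cells, against 125 to 228 CPM in SI epithelium. The reporter-negative libraries were rich in goblet cell transcripts: the 8 goblet markers summed to 1570 to 2717 CPM in thymic tuft cells, 2290 to 2836 CPM in SI tuft cells and 108562 to 118129 CPM in SI epithelium. In thymic tuft cells Fcgbp alone made up 1465 to 1800 CPM of this sum. The 10 enterocyte markers summed to 226 to 442 CPM in thymic tuft cells and 35315 to 39848 CPM in SI tuft cells, above the 18344 to 19962 CPM of SI epithelium.

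Libraries of different groups shared counts, and this bears on every thymic value below. Sharing between SI tuft libraries and the other groups was not estimated. What part of the SI tuft values is shared is therefore not known. In a fit over 281 thymus genes, epithelium libraries 1, 2 and 3 took their largest share from thymic libraries 3, 2 and 1, at 0.505%, 0.554% and 0.846% of the thymic counts. These pairs are called partners here, and the other shares in that fit were 0% to 0.179%. Thymic library 4 was no library's partner, with shares of 0.0266%, 0.179% and 0.158% in epithelium libraries 1, 2 and 3. The median ratio over the thymus genes, which was used for subtraction, was 0.568% to 0.583% in the 3 pairs. In the other direction the share was estimated from 3 goblet genes, Muc2, Tff3 and Zg16, whose counts in thymic libraries 1 to 3 were 0.826% to 1.10% of those in the partner. These 3 were selected among other things for low counts in thymic library 4, so their low level there is no finding. Of the goblet genes not selected, Clca1 and Fcgbp were at 0.604% and 5.87% of the mean epithelium count in library 4. Retnlb was at 9.38%, but on only 2 counts there. Thymic results are therefore given for each library, and with library 4 alone.

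In GRCm38, Lyz1 lies at chr10:117287797-117292868, Ang4 at chr14:51763878-51773590, Mmp7 at chr9:7692090-7699585, Itln1 at chr1:171518122-171535294 and Mptx2 at chr1:173274382-173277777. The 5 defensin genes lie in 1 cluster on chromosome 8, in the order Defa21, Defa30, Defa22, Defa17 and Defa24, from position 21025545 to 21735471, and share much of their sequence, which limits how far counts can be assigned to one of them. Across the 10 pairs, transcript identity was 77.5% to 99.3%, highest between Defa21 and Defa22. Of all 50-base windows of the Defa17 transcript, 8.05% were found in no other annotated transcript, and Defa3 held 320 of its 348 windows. The unique share was 27.1% in Defa21, 25.1% in Defa22, 47.6% in Defa30 and 71.9% in Defa24. How reads that match several copies were counted is not given in the sources used here, so values of single defensins, and of Defa17, Defa21 and Defa22 above all, are uncertain. The other 5 members had unique shares of 82.0% to 99.0%.

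The stretch just before the transcription start was compared because all members were lower in tuft cells than in SI epithelium. RefSeq promoters (GRCm38.p6) were given for 8 of the 10 members, without Defa17 and Defa24, and the 250 bases before the start were searched on both strands. The first motif was ATCAAAG, which reads CTTTGAT on the other strand, a form of the site that TCF/LEF factors of the Wnt pathway recognise. The second was TATAAA, which reads TTTATA on the other strand, the TATA box. The motifs do not overlap one another in the stretches shown. The 4 sequences below show how the shared defensin stretch compares with those of Mmp7 and Lyz1, and capitals mark the motifs found.
Defa21 and Defa22, chr8:21025295-21025544 and chr8:21162027-21162276, plus strand: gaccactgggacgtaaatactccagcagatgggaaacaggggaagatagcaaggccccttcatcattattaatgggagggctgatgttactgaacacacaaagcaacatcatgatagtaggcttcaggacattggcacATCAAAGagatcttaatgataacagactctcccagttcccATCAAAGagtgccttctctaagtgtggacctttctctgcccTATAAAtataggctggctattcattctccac
Defa30, chr8:21134400-21134649, plus strand: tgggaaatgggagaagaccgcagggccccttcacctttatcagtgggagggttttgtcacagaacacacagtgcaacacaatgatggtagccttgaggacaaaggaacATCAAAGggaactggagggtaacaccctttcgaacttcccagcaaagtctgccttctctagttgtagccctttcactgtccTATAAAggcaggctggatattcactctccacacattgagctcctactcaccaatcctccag
Mmp7, chr9:7691840-7692089, plus strand: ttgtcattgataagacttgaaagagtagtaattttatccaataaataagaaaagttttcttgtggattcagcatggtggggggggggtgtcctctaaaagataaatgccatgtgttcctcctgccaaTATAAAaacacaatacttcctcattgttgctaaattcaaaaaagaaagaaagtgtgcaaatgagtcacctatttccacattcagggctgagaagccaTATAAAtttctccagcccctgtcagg
Lyz1, chr10:117292869-117293118, minus strand: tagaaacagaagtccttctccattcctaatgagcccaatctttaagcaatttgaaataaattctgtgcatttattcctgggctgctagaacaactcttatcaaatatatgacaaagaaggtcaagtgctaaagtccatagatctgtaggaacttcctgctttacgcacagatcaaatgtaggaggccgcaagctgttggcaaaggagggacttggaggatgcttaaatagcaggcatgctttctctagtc

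The stretches of Defa21 and Defa22 were identical in all 250 bases, and each matched that of Defa30 in 173 of 280 alignment columns, gaps included (61.8%). The Defa30 stretch runs on past the bases that match the end of the other stretch. This identity and the motif positions below therefore depend on where the start is annotated. ATCAAAG was found in 3 of the 8 stretches, against 3.21% of 32851 mouse promoters of the same length. Defa21 and Defa22 held it with its first base 112 and 72 bases before the start, and Defa30 at 142 bases. TATAAA was found in 4 of the 8, against 12.4% of all promoters, at 31 bases in Defa21 and Defa22, 61 bases in Defa30, and 123 and 26 bases in Mmp7. Neither motif was present in these letters in Lyz1, Ang4, Itln1 or Mptx2. Defa21, Defa22 and Defa30 thus each held both motifs, with ATCAAAG at 2 sites in Defa21 and Defa22 and at 1 site in Defa30. A link between the motifs and the levels given next was not tested.

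In SI epithelium the 10 genes took 1.15%, 1.38% and 1.53% of all counts in libraries 1, 2 and 3. Per kilobase of transcript, Defa24 was the highest, at 7453 ± 2512 CPM per kb (SD, n = 3), followed by Defa30 at 5958 ± 501 CPM per kb, and these defensins overlapped between libraries. Lyz1, which cuts bacterial cell wall peptidoglycan, followed at 4328 ± 414 CPM per kb. Itln1, a lectin that binds microbial sugars, stood at 2347 ± 353 CPM per kb, and Defa17 at 1455 ± 361 CPM per kb. Ang4, an antimicrobial ribonuclease of the angiogenin family, was at 655.5 ± 61.4 CPM per kb. From Defa30 down to Ang4 and from Ang4 to Mmp7 each neighbour in this order was apart in all libraries.

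Mmp7, the processing protease, was at 266 ± 22.5 CPM per kb in SI epithelium and overlapped Mptx2, a mucosal pentraxin, at 198 ± 68.4 CPM per kb. The lowest were Defa21 at 15.3 ± 2.78 and Defa22 at 12.3 ± 4.37 CPM per kb, which overlapped. Per kilobase, Defa30 thus stood far above Defa21 and Defa22, whose single values are uncertain because most of their sequence is shared.

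The members did not all vary alike between the 3 epithelium libraries. Defa24 was at 2359, 2686 and 4324 CPM in libraries 1, 2 and 3. Library 3 exceeded the mean of the other two 1.71-fold for Defa24, 1.47-fold for Defa17, 1.75-fold for Mptx2 and 1.76-fold for Defa22. By contrast, the same ratio was 0.997 for Lyz1, 1.00 for Ang4, 0.996 for Mmp7 and 1.04 for Defa30. The defensins therefore did not move as a block: Defa30 and Defa24 differed in this ratio although they lie in the same cluster. Itln1 and Defa21 lay between, at 1.27-fold and 1.32-fold. Among genes of other Paneth cell lists the ratio was 0.998 (AY761184) to 2.16 (Defa29) among other alpha-defensins, 0.648 (Mptx1) to 2.20 (Pla2g2a) among other secreted products and 0.629 (Kit) to 1.66 (Atoh1) among regulators. Tuft markers were also highest in library 3, with sums of 134, 125 and 228 CPM in libraries 1, 2 and 3, and their part in these ratios was not tested. With 1 library on one side, these ratios have no replicate check.

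**Figure D1:**
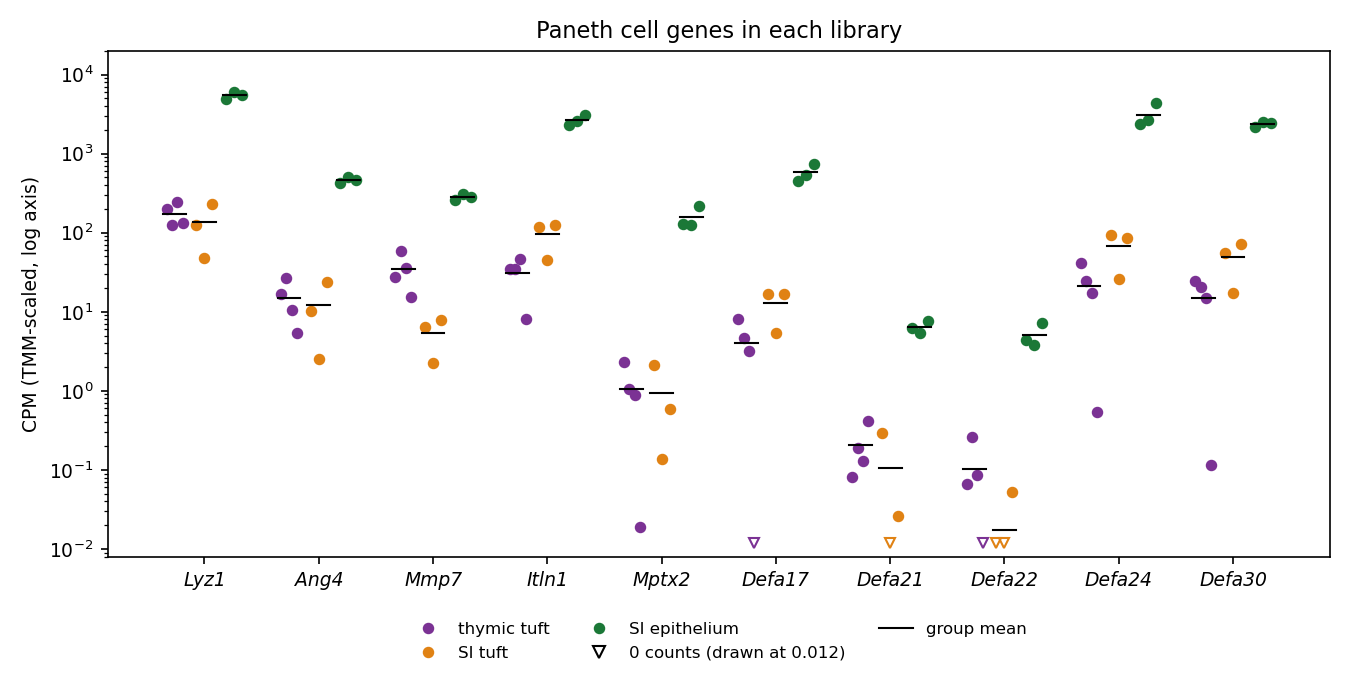
CPM (log axis) of the 10 genes in each library, with thymic tuft cells, SI tuft cells and SI epithelium from left to right for every gene. Points are libraries, bars are group means and open triangles are libraries with 0 counts. All SI epithelium points lie above all tuft cell points for each gene, and Mmp7 is higher in all 4 thymic libraries (15.5 to 59.1 CPM) than in the 3 SI tuft libraries (2.23 to 7.76 CPM).

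SI tuft cells against SI epithelium asks how these Paneth cell transcripts differ between reporter-positive and reporter-negative cells of the same organ. All 10 genes were lower in SI tuft cells in edgeR's quasi-likelihood test at an adjusted p (FDR) below 0.05, where 11.4% of the 19281 genes tested were called lower and 10.9% higher. The libraries of the groups did not overlap for any of the 10, which held in this direction for 28.4% of all genes and in the other for 22.8%. The median log2 fold change of the members was -5.57, against -0.10 for all genes tested. Summed over the 10 genes, SI tuft libraries 2, 3 and 4 held 425, 148 and 564 CPM, against 13053, 15297 and 17050 CPM in epithelium libraries 1, 2 and 3. All 10 genes passed the filter on low counts, but Defa21 and Defa22 passed through SI epithelium, where they are highest, so that their difference adds nothing to the count over the other 8.

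Lyz1 was at 124, 48.3 and 232 CPM in SI tuft libraries 2, 3 and 4, against 4949, 5995 and 5454 CPM in SI epithelium. Even the highest SI tuft library was at 4.25% of the epithelium mean, and the log2 fold change was -5.34 ± 0.51 (SE, FDR = 1.28e-05). Ang4 was at 10.3, 2.53 and 24.1 CPM in SI tuft cells, against 421, 508 and 466 CPM in SI epithelium. Its groups did not overlap, and its log2 fold change was -5.24 ± 0.76 (FDR = 0.000353).

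Itln1 stood at the largest part of its epithelial level, with a group mean of 3.58% of that in SI epithelium. It was at 117, 45.7 and 125 CPM in SI tuft cells, against 2323, 2594 and 3116 CPM in SI epithelium, and its log2 fold change was -4.80 ± 0.58 (FDR = 8.23e-05). Mptx2 had a group mean of 0.605% of that in SI epithelium. It was at 2.14, 0.136 and 0.581 CPM in SI tuft cells, against 127, 125 and 220 CPM in SI epithelium, a log2 fold change of -7.35 ± 1.11 (FDR = 0.000481). Mmp7 was at 6.37, 2.23 and 7.76 CPM in SI tuft cells, against 261, 309 and 284 CPM in SI epithelium, a log2 fold change of -5.70 ± 0.55 (FDR = 1.37e-05).

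The 3 abundant defensins were lower by similar amounts. Defa24 was at 92.8, 25.8 and 85.0 CPM in SI tuft cells, against 2359, 2686 and 4324 CPM in SI epithelium. Defa30 was at 55.8, 17.4 and 72.6 CPM in SI tuft cells, against 2147, 2530 and 2437 CPM in SI epithelium. Defa17 was at 16.7, 5.42 and 16.6 CPM in SI tuft cells, against 455, 542 and 735 CPM in SI epithelium. Their log2 fold changes were -5.52 ± 1.07, -5.61 ± 1.14 and -5.48 ± 1.06 for Defa24, Defa30 and Defa17, with FDRs of 0.00276, 0.00368 and 0.00266.

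The 2 scarce defensins rested on few counts. Defa21 had 12, 0 and 1 counts in SI tuft libraries 2, 3 and 4, against 330, 252 and 505 in epithelium libraries 1, 2 and 3, a log2 fold change of -5.87 ± 1.30 (FDR = 0.00632). Defa22 had 0, 0 and 2 counts in SI tuft cells, against 235, 179 and 478 in SI epithelium, and was also called lower (FDR = 0.0037). Its ratio of summed counts, scaled to library size, was 0.322% with a 95% exact interval of 0.0389% to 1.17%, which covers counting error only. The fitted log2 fold change of -8.02 depends on the small count that edgeR adds and is not a bound.

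**Figure D2:**
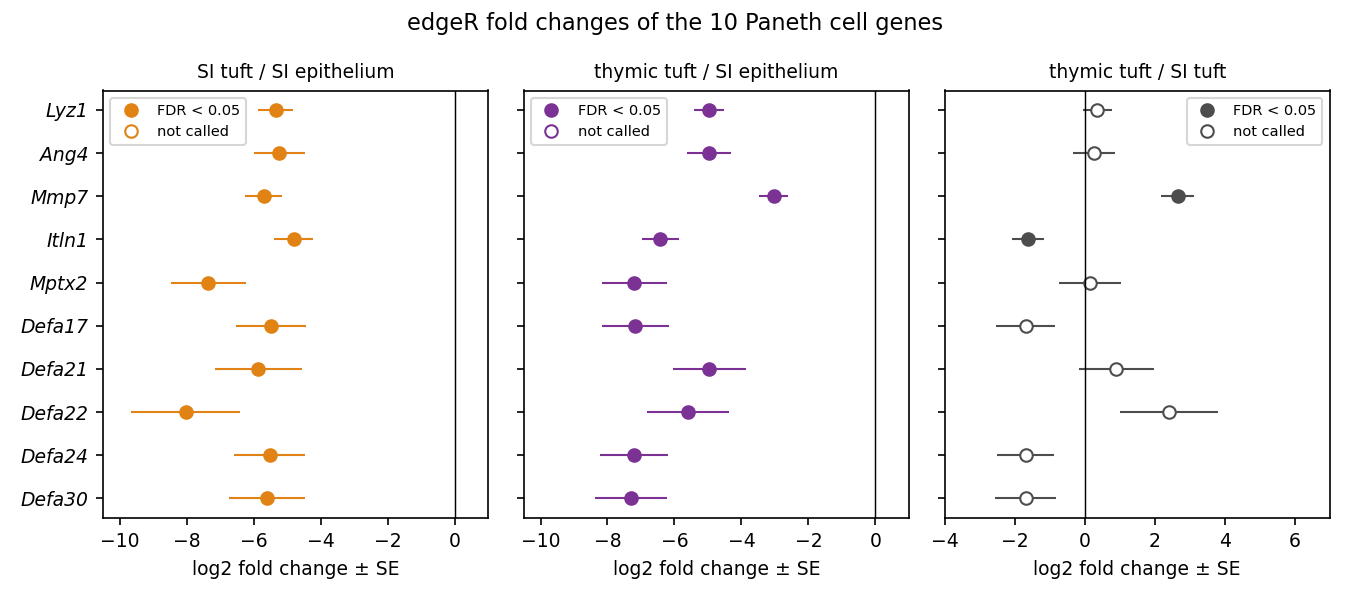
Log2 fold changes of the 10 genes in 3 comparisons (edgeR, 10 libraries), with standard errors derived from the F statistic of the test. Filled points have an FDR below 0.05. All 10 genes lie left of 0 in both comparisons with SI epithelium, whereas in thymic against SI tuft cells Mmp7 (2.66) and Itln1 (-1.62) are filled.

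Among SI tuft cells, library 3 had the lowest level of each of the 10 genes, tied at 0 with library 2 for Defa22. Over the 8 genes other than Defa21 and Defa22, library 2 exceeded library 3 by 2.55-fold (Itln1) to 15.7-fold (Mptx2), and library 4 exceeded it by 2.74-fold (Itln1) to 9.52-fold (Ang4). The sums of other lineages differed in order. The goblet markers summed to 2290, 2767 and 2836 CPM in libraries 2, 3 and 4, and the 8 enteroendocrine markers summed to 535, 1133 and 1020 CPM, highest in library 3. The enterocyte markers summed to 36210, 35315 and 39848 CPM, lowest in library 3 as the Paneth cell genes were. The low Paneth cell counts of library 3 thus went without low goblet or enteroendocrine sums, and their cause was not tested. Without library 3, all 10 genes remained called lower in SI tuft cells.

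**Figure D3:**
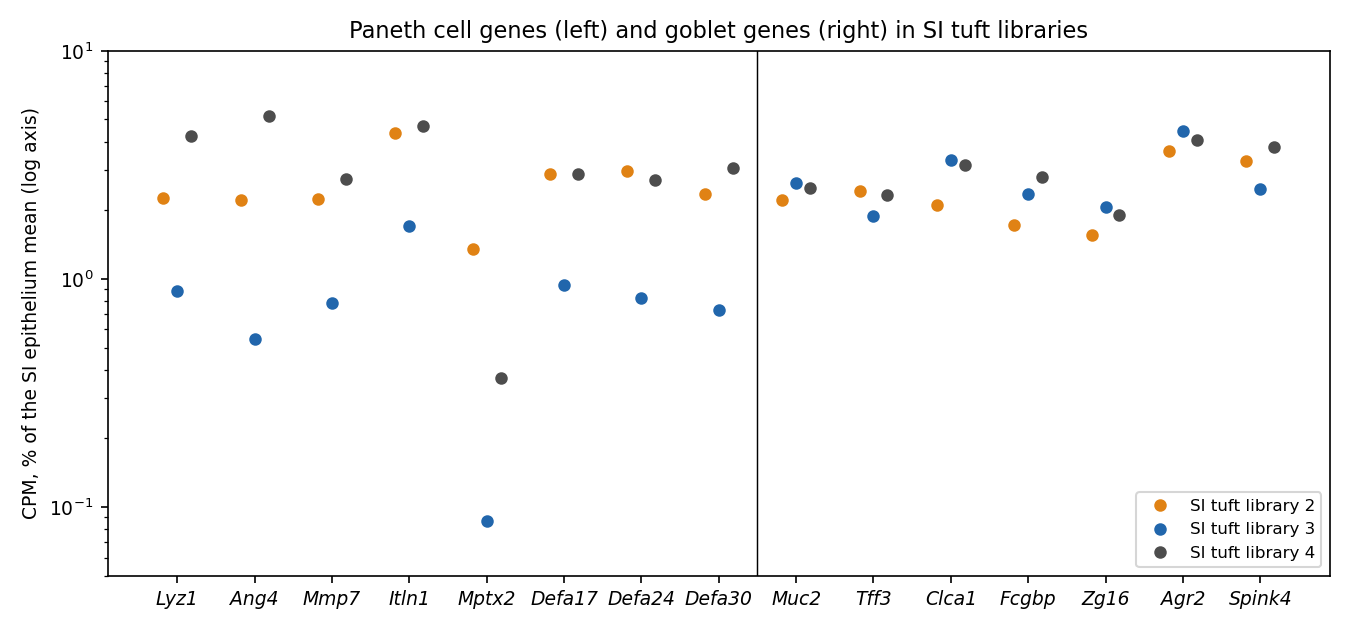
CPM of 8 Paneth cell genes (left of the line) and 7 goblet genes (right) in the 3 SI tuft libraries as a percentage of the SI epithelium mean (log axis). Library 3 is the lowest for each Paneth cell gene shown, for example 0.884% for Lyz1 against 2.26% and 4.25% in libraries 2 and 4, whereas of the goblet genes Tff3 and Spink4 are lowest there and the other 5 are not.

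Thymic tuft cells against SI epithelium compares tuft cells of an organ outside the gut with the reporter-negative gut cells. All 10 genes were again lower in thymic tuft cells, where 22.3% of genes were called lower and 28.6% higher, and no library overlapped, which held in this direction for 27.4% of genes and in the other for 28.1%. As in SI tuft cells, Defa21 and Defa22 passed the filter through SI epithelium, where they are highest, so their difference adds nothing to the count over the other genes. The median log2 fold change of the members was -6.02, against 0.15 for all genes. The summed level was 354, 295, 372 and 162 CPM in thymic libraries 1, 2, 3 and 4, against 13053, 15297 and 17050 CPM in SI epithelium. The members split by how much remained: the abundant defensins and Mptx2 were at the level of the shared counts in libraries 1 to 3 and near 0 in library 4, whereas Lyz1, Mmp7 and Ang4 were above it. With library 4 alone, and likewise after subtraction of the partner's share, all 10 genes were called lower as well. The log2 fold changes with library 4 alone were -5.36 for Lyz1, -4.18 for Mmp7, -6.42 for Ang4 and -8.35 for Itln1 (FDRs of 0.000529, 0.000284, 0.00118 and 1.1e-05).

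Defa24 was at 41.9, 24.5, 17.2 and 0.532 CPM in thymic libraries 1, 2, 3 and 4, against 2359, 2686 and 4324 CPM in SI epithelium, a log2 fold change of -7.21 ± 1.02 (FDR = 9.38e-05). In libraries 1, 2 and 3 its counts were 0.892%, 1.03% and 0.95% of those in the partner, within the range of the 3 goblet genes. Library 4 had 28 counts, and the mean CPM of SI epithelium was 5867-fold higher. Library 4 was thus far below the other thymic libraries for Defa24.

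Defa30 was at 24.7, 20.4, 15.0 and 0.114 CPM in thymic tuft cells, against 2147, 2530 and 2437 CPM in SI epithelium, a log2 fold change of -7.30 ± 1.08 (FDR = 0.000139). Its counts were 0.934%, 0.909% and 0.910% of those in the partners of libraries 1, 2 and 3, and library 4 had 6 counts. Defa17 was at 8.17, 4.62, 3.21 and 0 CPM, against 455, 542 and 735 CPM in SI epithelium, a log2 fold change of -7.17 ± 1.00 (FDR = 8.94e-05). Its counts were 1.02%, 0.959% and 0.918% of the partner's in libraries 1, 2 and 3. With 0 counts, library 4 was at least 10134-fold lower than the SI epithelium mean, taking 3 counts in that library as the floor.

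Mptx2 followed the same pattern, with 2.29, 1.06, 0.896 and 0.0190 CPM in thymic libraries 1, 2, 3 and 4, against 127, 125 and 220 CPM in SI epithelium (log2 fold change -7.20 ± 0.96, FDR = 6.2e-05). Its counts were 0.956%, 0.953% and 0.917% of those in the partners of libraries 1, 2 and 3. Library 4 had 1 count, a ratio of 0.0116% to summed SI epithelium with a 95% exact interval of 0.000294% to 0.0648%. The abundant defensins and Mptx2 therefore stood within 0.892% to 1.03% of the partner in all 3 partnered libraries.

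Lyz1 was at 197, 124, 242 and 132 CPM in thymic libraries 1, 2, 3 and 4, against 4949, 5995 and 5454 CPM in SI epithelium (log2 fold change -4.98 ± 0.45, FDR = 2.16e-06). Library 4, which had no partner, had 6932 Lyz1 counts, the second lowest CPM of the 4 but close to library 2. In libraries 1, 2 and 3 the counts were 3.32%, 2.33% and 6.38% of the partner's, above Muc2, Tff3 and Zg16. Lyz1 shares 195 of its 1214 windows of 50 bases with Lyz2, the lysozyme of myeloid cells. Lyz2 averaged 183 ± 19.0 CPM in thymic tuft cells (SD, n = 4) and 8.07 ± 5.64 CPM in SI tuft cells, against 3.98 ± 0.387 CPM in SI epithelium (n = 3 each). The 8 myeloid markers, of which Lyz2 was the most abundant, summed to 244 to 305 CPM in thymic tuft cells, 15.9 to 50.8 CPM in SI tuft cells and 20.3 to 25.5 CPM in SI epithelium. None of the 8 was at 0 in all thymic libraries, and the part of Lyz2 or myeloid RNA in the Lyz1 counts was not tested.

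Mmp7 kept the largest part of its epithelial level in thymic tuft cells, with a mean of 12.2%. It was at 27.8, 59.1, 35.8 and 15.5 CPM in thymic libraries 1, 2, 3 and 4, against 261, 309 and 284 CPM in SI epithelium (log2 fold change -3.04 ± 0.44, FDR = 0.000107). Its counts were 9.04%, 21.6% and 17.9% of the partner's in libraries 1, 2 and 3, and library 4 had 815 counts. Mmp7 overlaps AV064505 on the opposite strand, and the library kit marks no strand; AV064505 itself had 0 to 6 counts in each of the 10 libraries.

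Ang4 was at 16.9, 26.6, 10.5 and 5.36 CPM in thymic tuft cells, against 421, 508 and 466 CPM in SI epithelium (log2 fold change -4.97 ± 0.66, FDR = 6.1e-05). Its counts were 3.35%, 5.90% and 3.26% of the partner's in libraries 1, 2 and 3, above Muc2, Tff3 and Zg16, and library 4 had 282 counts. Itln1 was at 35.2, 34.7, 46.4 and 8.14 CPM in thymic tuft cells, against 2323, 2594 and 3116 CPM in SI epithelium (log2 fold change -6.43 ± 0.55, FDR = 1.44e-06). In library 1 its 1.04% of the partner lay in the range of Muc2, Tff3 and Zg16, and in libraries 2 and 3 it reached 1.5% and 2.60%. Library 4 had 428 Itln1 counts, so both genes were present without a partner.

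The scarce defensins were not in step with the abundant ones. Both passed the filter on low counts through SI epithelium, so their calls against it add nothing. Defa21 had 5, 10, 9 and 22 counts in thymic libraries 1, 2, 3 and 4, against 330, 252 and 505 in SI epithelium (log2 fold change -4.96 ± 1.09, FDR = 0.00247). Defa22 had 4, 14, 6 and 0 counts in thymic tuft cells, against 235, 179 and 478 in SI epithelium (log2 fold change -5.60 ± 1.23, FDR = 0.0025). Library 4 was thus the highest thymic library for Defa21 and had no count for Defa22, which differs from it at 3 of 419 aligned transcript positions. With the floor of 3 counts, Defa22 in library 4 was at least 90.4-fold lower than the SI epithelium mean.

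**Figure D4:**
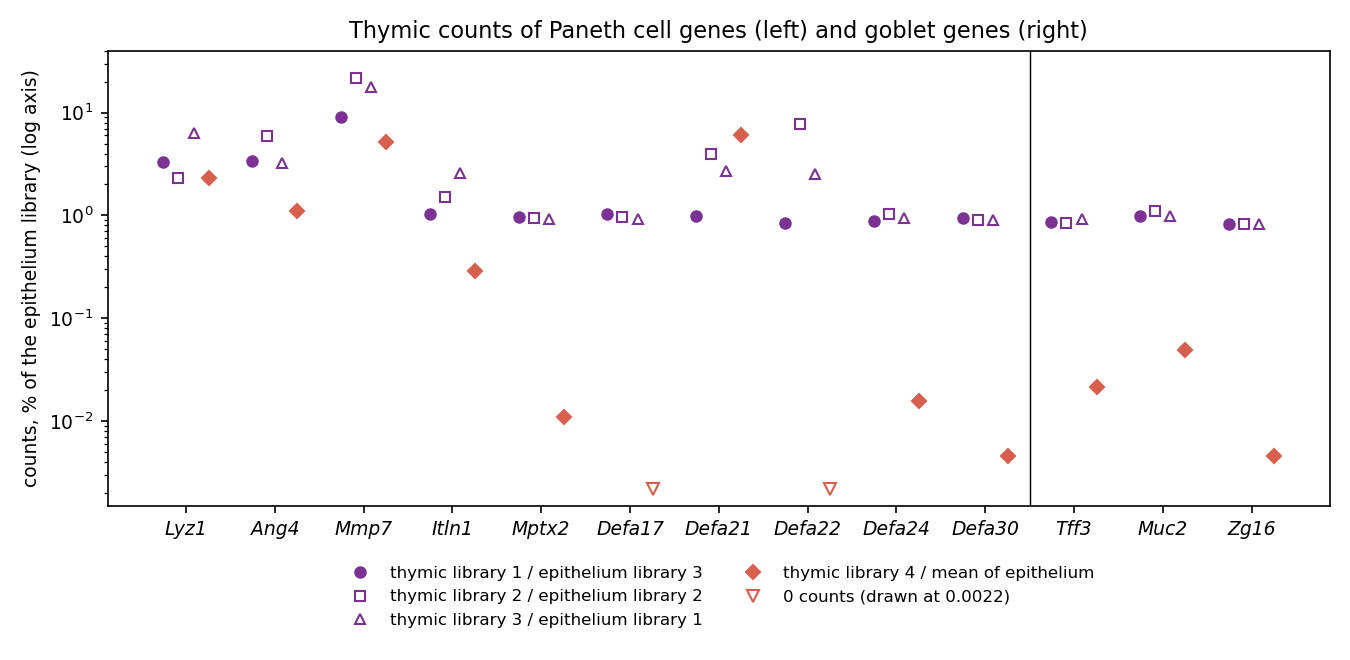
Counts of the 10 Paneth cell genes (left of the line) and the 3 goblet genes used to estimate shared counts (right) in thymic tuft libraries, as a percentage of an epithelium library (log axis). Libraries 1 to 3 are set against their partner and library 4 against the mean epithelium count; the open downward triangles are 0 counts. Mptx2, Defa17, Defa24 and Defa30 lie at 0.892% to 1.03% in libraries 1 to 3, whereas Mmp7 lies at 9.04% to 21.6%.

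Thymic against SI tuft cells compares tuft cells of both organs. Mmp7 was the 1 member called higher in thymic tuft cells and Itln1 the 1 called lower, with 8 not called, where 28.5% of genes were called higher and 23.1% lower. The libraries of the groups did not overlap for 1 member, Mmp7, where 26.3% of genes did not overlap in that direction and 24.9% in the other. The median log2 fold change of the members was 0.21, against 0.12 for all genes.

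Mmp7 was at 27.8, 59.1, 35.8 and 15.5 CPM in thymic tuft cells, against 6.37, 2.23 and 7.76 CPM in SI tuft cells, a log2 fold change of 2.66 ± 0.47 (FDR = 0.000546). Every thymic library was above every SI tuft library. With thymic library 4 alone the log2 fold change was 1.51 (FDR = 0.0171), and after subtraction of the partner's share it was 2.67 (FDR = 0.000669).

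Itln1 was at 35.2, 34.7, 46.4 and 8.14 CPM in thymic tuft cells, against 117, 45.7 and 125 CPM in SI tuft cells, a log2 fold change of -1.62 ± 0.46 (FDR = 0.0115). Thymic library 3 lay just above SI tuft library 3, so the groups overlapped. With thymic library 4 alone the log2 fold change was -3.55 (FDR = 0.000574), and after subtraction it was -2.60 (FDR = 0.00104).

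For the abundant defensins the call depended on the thymic libraries used. Over all 4, the log2 fold changes were -1.69 for Defa17, Defa24 and Defa30, with SEs of 0.83, 0.83 and 0.88 and FDRs of 0.110, 0.107 and 0.128. With library 4 alone, Defa24 and Defa30 were lower in the thymic library, at log2 fold changes of -6.98 (FDR = 0.00021) and -8.69 (FDR = 0.000113). Defa17, with 0 counts there, was also called lower (FDR = 0.000139) and was at least 226-fold lower than the SI tuft mean. After subtraction of the partner's share from libraries 1 to 3, Defa17, Defa24 and Defa30 were lower by log2 values of -4.68, -5.16 and -5.66 (FDRs of 0.001, 0.000106 and 0.000481). This subtraction took counts from the thymic side alone. In the SI tuft libraries these defensins stood at 0.732% to 3.06% of the SI epithelium mean. Muc2, Tff3 and Zg16 stood at 1.56% to 2.63% there, and no share was estimated or removed. Without library 4, Defa17, Defa24 and Defa30 were called lower as well, with log2 fold changes of -1.27, -1.28 and -1.27 (FDRs of 0.0244, 0.0311 and 0.0173). In the fits with 1 thymic library, that library is assumed to vary like the other groups.

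Mptx2 was called lower in 2 of these settings: its log2 fold change was 0.15 ± 0.88 (FDR = 0.898) over all libraries, -5.49 with library 4 alone (FDR = 0.0385) and -3.24 after subtraction (FDR = 0.0108). Members called lower were thus 5 in both settings (Itln1, Mptx2, Defa17, Defa24 and Defa30), against 1 over all libraries. Lyz1 and Ang4 were not called over all libraries, with log2 fold changes of 0.37 ± 0.40 (FDR = 0.474) and 0.27 ± 0.60 (FDR = 0.735). Their libraries overlapped between the groups: Lyz1 spanned 124 to 242 CPM in thymic tuft cells and 48.3 to 232 CPM in SI tuft cells. Defa21 and Defa22 were not called either, with log2 fold changes of 0.91 ± 1.07 (FDR = 0.504) and 2.42 ± 1.40 (FDR = 0.169), on 46 and 24 summed counts in thymic tuft cells against 13 and 2 in SI tuft cells.

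The make-up of the Paneth cell counts differed between the organs. The 5 defensins made up 21.2%, 16.9%, 9.58% and 0.658% of the counts of the 10 genes in thymic libraries 1, 2, 3 and 4. In SI tuft libraries 2, 3 and 4 they made up 39.0%, 32.9% and 30.9%, and in epithelium libraries 1, 2 and 3 they made up 38.1%, 37.7% and 44.1%. The defensin share was thus lower in every thymic library than in any other library. Lyz1 made up 55.6%, 42.0%, 65.2% and 81.4% in the thymic libraries, 29.1%, 32.8% and 41.2% in the SI tuft libraries and 37.9%, 39.2% and 32.0% in the epithelium libraries. The Mmp7 share was 7.87% to 20.0% in thymic tuft cells, 1.38% to 1.51% in SI tuft cells and 1.66% to 2.02% in SI epithelium. These shares are descriptions, and no test was made on them.

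**Figure D5:**
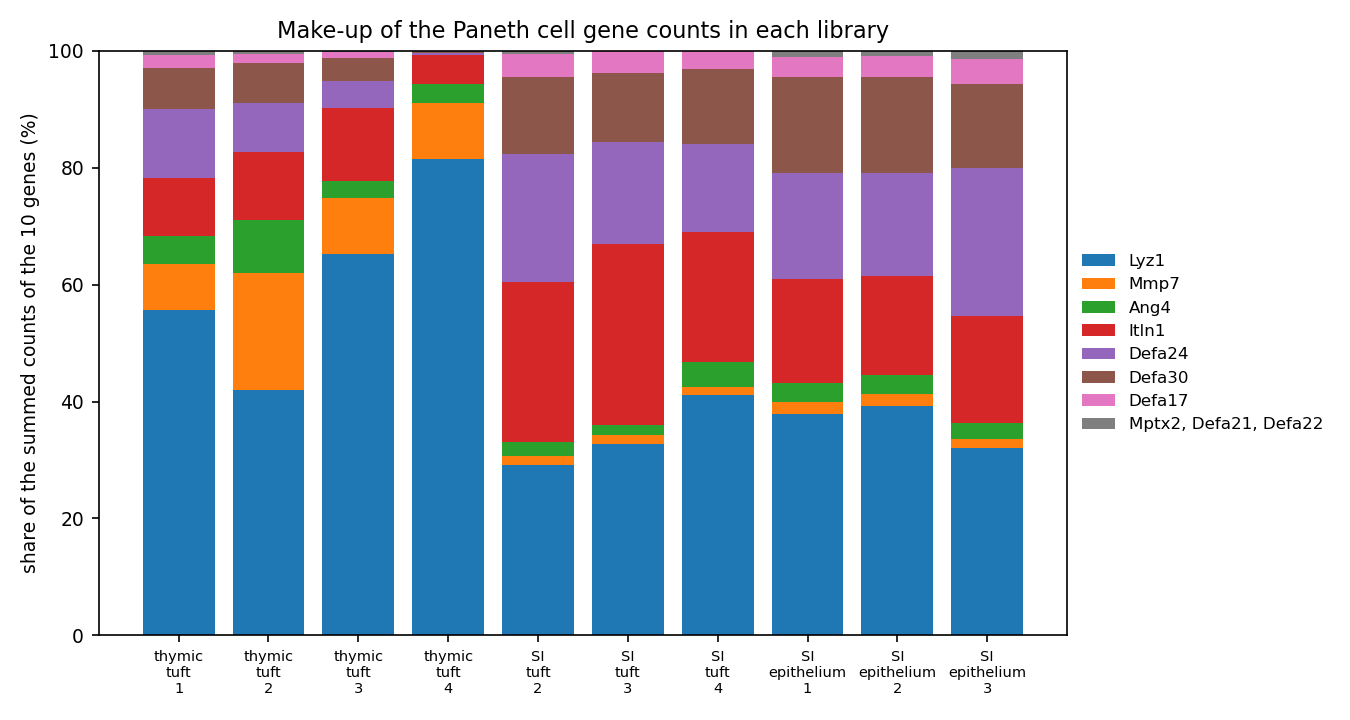
Share of each gene in the summed counts of the 10 Paneth cell genes (%), 1 bar a library, thymic tuft cells first, then SI tuft cells and SI epithelium. Lyz1 takes 81.4% of the bar of thymic library 4, where the 5 defensins take 0.658%, against 37.7% to 44.1% for the defensins in SI epithelium.

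Other alpha-defensin genes were counted from a list of 19 further symbols, of which 9 passed the filter. In SI tuft cells against SI epithelium 8 of the 9 were lower, in thymic tuft cells against SI epithelium 8 were lower, and in thymic against SI tuft cells 2 were lower; none was higher. Of all genes 11.4%, 22.3% and 23.1% were called lower in these comparisons, and 10.9%, 28.6% and 28.5% higher. In thymic against SI tuft cells the share of the 9 that was lower is thus near that of all genes. Of the 9, Defa25, Defa27, Defa34 and Defa35 were at most at 0.0729 CPM in any tuft library, so these 4 passed the filter through SI epithelium and had to differ from it. AY761185 was at 0.627 CPM in thymic library 4 and at most at 0.0729 CPM in the other tuft libraries. It therefore passed through SI epithelium as well, but was not called in any of the comparisons. AY761184 was the most abundant, at 16.0 ± 9.22 CPM in thymic tuft cells (n = 4) and 48.4 ± 26.3 CPM in SI tuft cells, against 2744 ± 142 CPM in SI epithelium (SD, n = 3 each). In thymic libraries 1, 2, 3 and 4 it was at 23.8, 21.6, 15.6 and 3.23 CPM. It was lower in thymic than in SI tuft cells as well, with a log2 fold change of -1.59 ± 0.53 (FDR = 0.0255). Defa29, Defa26 and Defa3 were lower in SI tuft cells, with log2 fold changes against SI epithelium of -6.06, -5.72 and -5.26 (FDRs of 0.00118, 0.00122 and 0.000692). In thymic tuft cells the log2 fold changes of Defa29, Defa26 and Defa3 against SI epithelium were -7.11, -7.09 and -7.33 (FDRs of 6.64e-05, 5.08e-05 and 1.32e-05). Thymic library 4 held 0.0190, 0 and 0 CPM of Defa29, Defa26 and Defa3. Their sequences overlap with those of the members, so that these counts are not independent of the members' counts.

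Of 12 other secreted products linked to Paneth cells, 10 were tested. Against SI epithelium, 6 were lower in SI tuft cells and none was higher (11.4% and 10.9% of all genes). Clps, the cofactor of pancreatic lipase, was at 12.6 ± 3.14 CPM in SI tuft cells and 522.7 ± 31.4 CPM in SI epithelium (log2 fold change -5.37, FDR = 0.00194). Pla2g2a, a secreted phospholipase with antibacterial action, was at 1.60 ± 2.41 CPM in SI tuft cells and 37.9 ± 18.9 CPM in SI epithelium (log2 fold change -4.56, FDR = 0.0249). Habp2 and Pnliprp2 were lower with log2 fold changes of -3.89 (FDR = 0.0119) and -3.53 (FDR = 0.000556). In thymic tuft cells 8 were lower and 2 higher than in SI epithelium (22.3% and 28.6% of all genes). The 2 higher were Reg3g and Ang2. Ang2 passed the filter on low counts through thymic tuft cells, where it is highest, so its call adds nothing to this count. Clps, Pla2g2a, Pnliprp2 and Habp2 were again lower, with log2 fold changes of -7.06, -7.39, -6.38 and -5.93 (FDRs of 5.97e-05, 0.000593, 1.55e-06 and 0.00024). Thymic library 4 held 0, 0, 0.627 and 0.0190 CPM of these genes, in that order.

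The antimicrobial C-type lectins of the Reg3 family differed among themselves. Reg3g was at 180, 166, 197 and 155 CPM in thymic libraries 1, 2, 3 and 4 and at 49.1, 28.4 and 94.4 CPM in SI tuft libraries 2, 3 and 4, against 59.8, 57.8 and 85.6 CPM in epithelium libraries 1, 2 and 3. Every thymic library was above all other libraries, library 4 included. The log2 fold change was 1.37 ± 0.33 against SI epithelium (FDR = 0.00441) and 1.61 ± 0.33 against SI tuft cells (FDR = 0.00164). Reg3a and Reg3b were lower in thymic tuft cells than in SI tuft cells. Reg3a was at 0.849 ± 0.771 CPM in thymic tuft cells and 61.2 ± 17.2 CPM in SI tuft cells (log2 fold change -6.17, FDR = 2.89e-05). Reg3b was at 16.4 ± 11.5 CPM in thymic tuft cells and 239 ± 136 CPM in SI tuft cells (log2 fold change -3.86, FDR = 0.0001). Thymic library 4 held 0.0380 CPM of Reg3a and 8.17 CPM of Reg3b. Ang, another angiogenin, was lower in thymic than in SI tuft cells with a log2 fold change of -1.15 (FDR = 0.0238). In all, 4 of the 10 were lower and 2 higher in that comparison (23.1% and 28.5% of all genes). Besides Reg3g the other that was higher was Ang2, which passed the filter through thymic tuft cells, so its call again adds nothing.

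Regulators and niche factors linked to Paneth cells were split. Of 20 tested, 6 were lower and 3 higher in SI tuft cells against SI epithelium, where 11.4% and 10.9% of all genes were. Their median log2 fold change was -0.35, against -0.10 for all genes, and the share that was higher is near that of all genes. Atoh1 was at 4.87 ± 0.434 CPM in SI tuft cells and 151 ± 48.8 CPM in SI epithelium (log2 fold change -4.95, FDR = 0.00045). Spdef, a transcription factor of goblet and Paneth cells, the Notch ligand Dll4 and the potassium channel Kcnn4 were lower with log2 fold changes of -2.68, -2.51 and -1.82 (FDRs of 0.00059, 0.0427 and 0.00498). The 3 that were higher were Cd24a, Sox9 and Kit. Cd24a, a surface protein, was at 6722 ± 1120 CPM in SI tuft cells and 508 ± 26.5 CPM in SI epithelium (log2 fold change 3.73, FDR = 7.39e-07). The transcription factor Sox9 and the receptor Kit were higher with log2 fold changes of 2.42 (FDR = 3.5e-07) and 1.23 (FDR = 0.00298).

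In thymic tuft cells 10 of these 20 were lower and 5 higher than in SI epithelium, where 22.3% and 28.6% of all genes were. Their median log2 fold change was -0.88, against 0.15 for all genes. Atoh1, Bhlha15, Kcnn4 and Spdef were lower with log2 fold changes of -7.12, -4.87, -3.82 and -3.51 (FDRs of 6.36e-06, 0.00745, 4.71e-06 and 1.22e-05). Thymic library 4 held 0.0380, 0, 2.07 and 2.45 CPM of these genes, in that order. Nod2, a sensor of bacterial peptidoglycan, was at 11.5 ± 6.95 CPM in thymic tuft cells and 1.28 ± 0.671 CPM in SI epithelium (log2 fold change 3.16, FDR = 0.00154). Kit, Sox9 and Cd24a were higher with log2 fold changes of 2.70, 2.18 and 1.55 (FDRs of 2.41e-06, 2.03e-07 and 0.000125). Against SI tuft cells 7 were lower and 2 higher in thymic tuft cells, where 23.1% and 28.5% of all genes were. Their median log2 fold change was -0.27, against 0.12 for all genes. Dll1, Ephb2, Tcf7l2, a TCF/LEF factor, and Cd24a were lower with log2 fold changes of -3.09, -2.47, -2.46 and -2.18 (FDRs of 2.72e-06, 0.000884, 5.18e-07 and 5.45e-06). Kit and the ephrin receptor Ephb3 were higher with log2 fold changes of 1.47 (FDR = 0.000236) and 0.97 (FDR = 0.00352).

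The genes whose levels followed the mean profile of the 10 members most closely were sought among 8584 protein-coding genes with at least 10 CPM in SI epithelium, by the root mean square difference of centred log2 CPM over the 10 libraries. The 8 closest were Bcas1 (0.616), Ido1 (0.646), Rep15 (0.675), Spink4 (0.683), Ttyh1 (0.686), Cracr2a (0.695), Hpd (0.701) and Gm15292 (0.742). The members' own distances from their mean were 0.598 for Itln1 to 1.40 for Mmp7. The 8 outside genes were picked as the closest of 8584, so their distances cannot be set against those of the members. Bcas1 was at 2.30 ± 1.08 CPM in thymic tuft cells (n = 4) and 4.75 ± 0.953 CPM in SI tuft cells, against 156 ± 8.24 CPM in SI epithelium (n = 3 each). Ido1, which breaks down tryptophan, was at 8.81 ± 5.78 CPM in thymic tuft cells and 14.1 ± 1.89 CPM in SI tuft cells, against 472 ± 29.5 CPM in SI epithelium. Spink4 is 1 of the 8 goblet markers, and Gm15292 lies within the defensin cluster on chromosome 8. The likeness rests mostly on the step between the groups and is given with no test.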

How the data were processed

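The deposited files hold whole-number counts per gene for 10 libraries. STAR, DESeq2 and the build GRCm38 are named in the submitters' processing notes, without roles or versions; the tool that counted reads is not given in the sources used here. Libraries were made from poly(A) RNA with the NuGEN Ovation V2 and Nextera XT kits, per the labels' protocols. The authors sorted 4 replicates per cell group and dropped 1 library of SI tuft cells and 1 of SI epithelium on quality, as the design text states.

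Gene names and lengths came from GENCODE M21. edgeR 4.0.16 (R 4.3.3, limma 3.58.1) was run on the counts of all 10 libraries: filterByExpr (minimum count 10, total 15) kept 19281 genes, TMM factors were 0.661 to 1.43, and quasi-likelihood tests were adjusted by Benjamini-Hochberg over all genes tested, with a call at an FDR below 0.05. Standard errors (SE) of log2 fold changes were derived, as the absolute log2 fold change divided by the square root of the F statistic. DESeq2 1.42.0 was an alternative. Shared counts were estimated from genes outside the members and the defensin cluster. Subtraction removed the median share of the 3 goblet genes from thymic libraries 1 to 3 and the thymic share from their partners. SI tuft libraries were left as deposited.

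The procedure was tested on simulated counts with 200 changed genes. It recovered 71%, 69% and 76% of 4-fold changes and 18%, 32% and 19% of 2-fold changes for SI tuft against SI epithelium (18759 genes), thymic tuft against SI epithelium (18725 genes) and thymic against SI tuft cells (18742 genes). False calls made up 1.11%, 1.94% and 3.06%. In the simulation each gene had the same spread in all groups. In the data the spread within a group (biological coefficient of variation) was 0.26 in SI epithelium, 0.497 in SI tuft cells and 0.786 in thymic tuft cells. Far more genes were called in the data than were changed in the simulation, so these rates need not hold for the data.

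The members and lists were chosen with earlier results of these data known. From each list, up to 4 called genes each way with the largest change and at least 10 CPM in the higher group were named, and 8 genes most like the members. Intervals and floors cover counting error only, since reads carried no molecular identifiers.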

Additional observations from a re-analysis of the deposited data

How the results depend on the processing

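Over the fold changes and levels of single genes and the summed defensins under the alternatives, 517 values were unchanged in direction and, where tested, in side of the threshold. The levels per kilobase and the summed defensins, which are among them, were not tested. The levels could not change, since exon length equals the length of the longest transcript for every member. The threshold was newly passed by 13 values, 2 of which also changed sign, 1 fell short of it and 12 changed sign in all. These changes all concern thymic against SI tuft cells, except Defa30 with the replicate block. In SI tuft cells against SI epithelium, genes called lower and higher were 2199 and 2101, and became 3513 and 3475 with only the 2 groups compared; leaving out 1 library gave 1426 (without epithelium library 1) to 2754 (without thymic library 4) lower and 1462 to 2516 higher. Members called lower in thymic against SI tuft cells were 1, but 5 after subtraction of shared counts, 5 with only thymic library 4, and 1 to 4 when 1 library was left out (4 without thymic library 4). Members called higher were 1, or 1 to 2 when 1 library was left out; Defa21 joined without SI tuft library 2 (log2 fold change 3.71, FDR = 0.037) and Lyz1 without SI tuft library 4 (1.00, FDR = 0.0475). In that comparison the sign turned for Mptx2 with the replicate block (-0.52), after subtraction (-3.24), with only thymic library 4 (-5.49) and when 1 library was left out (-0.52 to 1.55). It also turned for Lyz1 (-0.024 with only thymic library 4, -0.047 to 1.00 with 1 library left out), Ang4 (-1.19, and -0.23 to 1.20) and Defa22 (-2.93 with only thymic library 4). The cause was not tested.

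The replicate numbers did not pair the libraries: in 8 same-numbered pairs the correlation of deviations was -0.045 to 0.075, with 0 above 0.1. With the replicate number as a block, Defa30 in SI tuft cells against SI epithelium was at -5.08 (FDR = 0.0734) and the other 9 members were called lower. Defa21 and Defa22 gave no value in thymic against SI tuft cells with only the 2 groups, since they did not pass the filter. Depth limits Defa21 and Defa22, which had at most 22 counts in any tuft library.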

Other observations

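Ang2, an angiogenin that Paneth cell lists hold beside Ang4 in mice, was picked out after its values were seen. It was at 2.81, 2.83, 3.15 and 5.34 CPM in thymic libraries 1, 2, 3 and 4, against 0.0188, 0.0212 and 0.0454 CPM in epithelium libraries 1, 2 and 3, all of which are below the floor of 3 counts or at it. It had 0 counts in all 3 SI tuft libraries. Ang2 passed the filter on low counts through thymic tuft cells and was picked for this pattern, so no test is given. The highest thymic level was in library 4, which had no partner among the epithelium libraries. Ang4 ran the other way, being lower in each thymic library than in every epithelium library. Ang2 and Ang4 belong to a family of similar genes, and how reads shared between them were counted is not given in the sources used here.

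Fcgbp, a goblet cell mucus protein, was also picked out after its values were seen. Its counts were 7.36%, 7.09% and 10.2% of the partner's in thymic libraries 1, 2 and 3, above the 0.826% to 1.10% of Muc2, Tff3 and Zg16. It was at 1800, 1696, 1750 and 1465 CPM in thymic libraries 1, 2, 3 and 4, against 410, 564 and 665 CPM in SI tuft libraries 2, 3 and 4.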
